A study of Rattus norvegicus with 241 samples.

Results

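EPCAM+ cells sorted from mammary tumors were compared with luminal epithelial cells sorted from the mammary glands of the same rats. The comparison rests on 6 of the 241 samples of the series (202 of them bulk RNA-seq), chosen by their labels as the EPCAM+ tumor samples and the gland luminal samples of the tumor-bearing vehicle rats. All 6 came from 3 outbred virgin female Sprague Dawley (SD) rats, named C2N, C2R and C5R, that were dosed with vehicle by oral gavage, 2 doses daily over 10 days beginning at an age given both as 21 days and as 4 weeks, and then given 1 intraperitoneal injection of 50 mg/kg of N-nitroso-N-methylurea (NMU), an alkylating carcinogen. Tumors and glands were collected 87 days after NMU. Tumor cells were gated on EPCAM and separated from CD45+ leukocytes of the same suspension, and luminal cells as CD24+CD29low among CD31-CD45- gland cells, so the groups differ in gate as well as in tissue. They also differ in processing, because the authors normalized and filtered the tumor and gland tables separately. Beside them stand 3 tumor and 3 gland luminal samples of NMU rats given TGFBRi (LY2157299, galunisertib, which blocks the kinase of the TGFβ receptor TGFBR1, at 75 mg/kg) over the same 10 days. Basal gland cells (CD24+CD29high) and tumor CD45+ leukocytes of the 3 vehicle rats also serve for reference.

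The mammary epithelium is a bilayer in which luminal cells face the duct and can be induced to make milk, while basal myoepithelial cells contract and rest on the basement membrane. Luminal cells divide into hormone-sensing cells, which carry estrogen and progesterone receptors, and progenitors that give rise to milk-secreting alveoli. NMU gives rise in rats to mammary carcinomas that grow in a collagen-rich stroma, and tumor cells can lose part of the secretory program and of the junctions of the luminal layer.

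Between 6952044 and 26593437 reads on genes were recovered per sample (tumor 26593437, 14746594 and 14273412, luminal 6952044, 14808084 and 21445893 in C2N, C2R and C5R). Values below are rescaled reads, which are reads divided by a size factor shared across both tables, and they are listed in the order C2N, C2R and C5R. A log2 difference is tumor minus luminal on log2(rescaled reads + 1), and a gene was called at a limma adjusted p of 0.05 or less over all genes tested. The luminal library of C2N was the shallowest and gave 21.3% of its reads to ribosomal protein genes, and the tumor library of C5R held the lowest sum of fibroblast markers among the 3 tumors. In sorted bulk samples, fewer cells of a type and less RNA per cell cannot be told apart.

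The EPCAM+ tumor samples carried less of the epithelial program than the luminal samples and more of the fibroblast program. Of 18 epithelial identity genes tested, such as keratins, claudins and E-cadherin, 10 were lower in tumor and 1 was higher, with a median log2 difference of -1.84. Over all 12921 genes tested, 11.4% were lower, 11.5% were higher and the median was 0.01. Against basal cells of the same glands, 5 of the 18 were higher and 3 lower in tumor, with a median of 0.14. The list summed to 81882, 114776 and 152746 in tumor, 401428, 763934 and 952244 in luminal and 117655, 119185 and 151616 in basal samples. The lower level is therefore relative to luminal cells, and tumor and basal sums overlapped. As a share of reads on genes, tumor (0.676 to 1.92%) and luminal samples (1.77 to 5.41%) overlapped too. EPCAM itself, the adhesion molecule of the tumor gate, stood at 4622, 5393 and 20346 in tumor and 19525, 33654 and 50742 in luminal samples. The tumor of C5R lay above the luminal sample of C2N, so the groups overlapped, and the call on its log2 difference of -2.01 ± 0.70 SE (limma adjusted p = 0.0489) was lost by edgeR, with scaling by total reads and when rat C2N or C2R was left out (adjusted p = 0.157 without rat C2N, 0.393 without rat C2R). CLDN3, a claudin of tight junctions, was at 4067, 5514 and 5723 in tumor and 62353, 104341 and 58924 in luminal samples (-3.85 ± 0.62 SE, limma adjusted p = 0.000634). CLDN7, another claudin, was at 154, 408 and 283 in tumor and 3921, 5911 and 5130 in luminal samples (-4.23 ± 0.49 SE, limma adjusted p = 4.82e-05). For both claudins every tumor sample lay below every luminal sample. ITGB1, which encodes the CD29 antigen of the gland gate, was the gene of this list that rose, at 11817, 7189 and 8498 in tumor and 2235, 1598 and 3951 in luminal samples (1.89 ± 0.56 SE, limma adjusted p = 0.0235), and its call was lost without C2N or C2R (adjusted p = 0.171 without rat C2N, 0.263 without rat C2R). The luminal gate took cells low in CD29 and the tumor gate did not use CD29, so the difference in ITGB1 is not independent of the sort. CD24, the other antigen of the gland gate, is also in this list. The calls of CLDN3 and CLDN7 held with each rat left out in turn, whereas 3, 2 and 11 of the 11 epithelial calls held without C2N, C2R and C5R, and 4 held with scaling by total reads.

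The label of the tumor samples was checked against markers of the cells that the gate could hold. Fibroblast markers (12 genes tested, such as collagens, LUM and the PDGF receptors) summed to 1030337, 744118 and 82675 in tumor and to 11690, 21704 and 5945 in luminal samples, and 8 of 12 were higher in tumor with a median of 4.68. The tumor sum holds 1 further marker, COL1A2, which is in the tumor table alone and adds 6.37, 3.03 and 0.559 rescaled reads. The share of this sum in the reads on genes was 8.51, 6.65 and 1.04% in the 3 tumors. PDGFRB, the PDGF receptor of fibroblasts and pericytes, was at 4508, 5090 and 1449 in tumor and 167, 42.1 and 48.4 in luminal samples (5.50 ± 0.61 SE, limma adjusted p = 4.59e-05). No fibroblast marker was at 0 in every sample of either group. The samples are therefore called EPCAM+ tumor samples by their gate, and the part of other cells in the differences below was not tested. The luminal samples carried the luminal keratins KRT8 and KRT18 at 72622, 142656 and 212083 and 32993, 69514 and 66776, and in tumor these stood at 12593, 21452 and 33594 and 8773, 12185 and 23218. Leukocyte markers (13 genes) summed to 17983, 9896 and 4321 in tumor, 1898, 2889 and 2498 in luminal and 178973, 223693 and 239915 in tumor CD45+ samples. In tumor against luminal samples 4 of 13 were higher (median 1.95, per-rat medians 3.60, 0.75 and 1.02), and none of these calls held without C2N or without C2R.

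**Figure D1:**
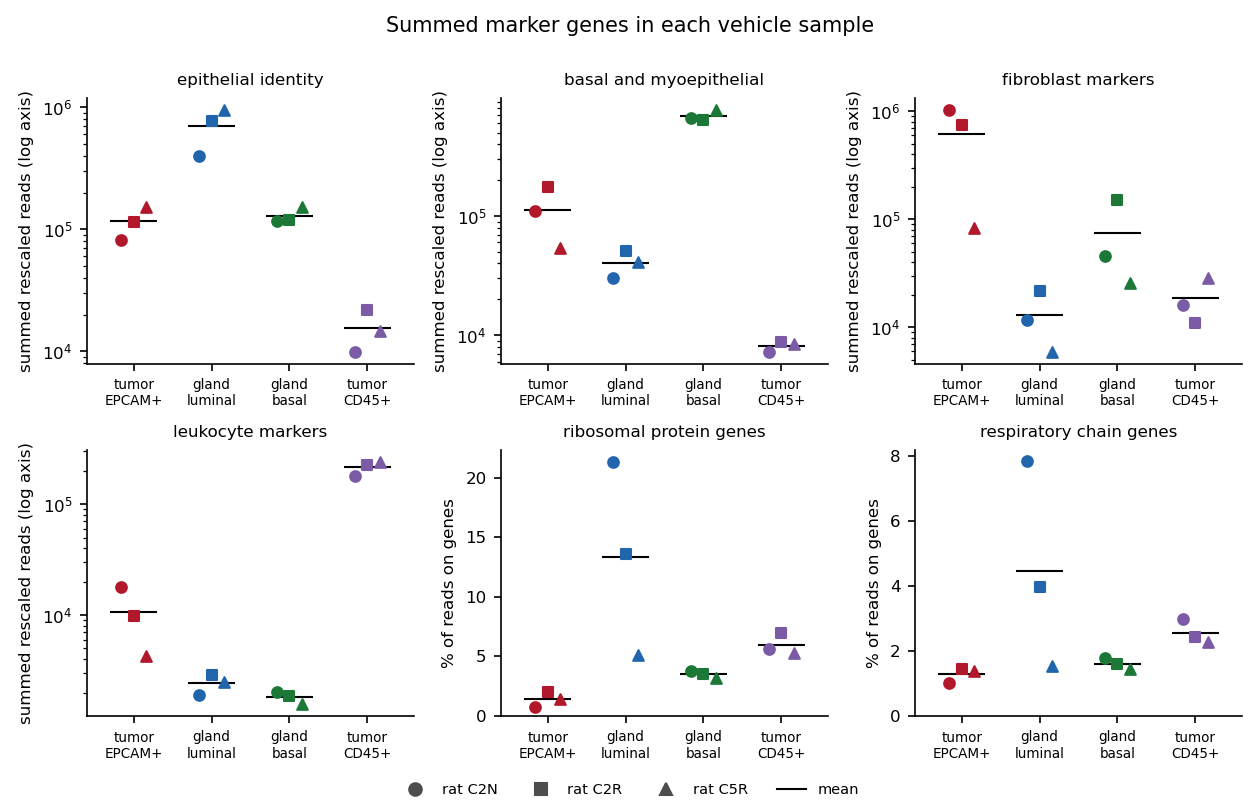
Summed rescaled reads of 4 marker lists (log axes) and the percent of reads on genes given to ribosomal protein and respiratory chain genes (linear axes) in each sample of 4 sorted fractions of vehicle rats; marker shapes name the rat and bars are means of 3. Tumor EPCAM+ samples lay below luminal samples for epithelial genes and above them for fibroblast markers, and the luminal sample of C2N gave 21.3% of its reads to ribosomal protein genes.

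Across the genome, 2954 of 12921 genes tested (22.9%) were called, 1480 higher (11.5%) and 1474 lower (11.4%) in tumor. The split depends on scaling. It was 4151 higher and 566 lower with scaling by total reads, which raised the median of all genes to 1.09, and 2278 and 967 with the values as deposited, which raised it to 0.42. Differences here are relative to the median gene. For 5102 genes (39.5%) the 3 tumor values did not overlap the 3 luminal ones. Left out in turn, rats C2N, C2R and C5R gave 1018, 644 and 4227 calls.

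The 10 genes with the largest rise were GLDN, COL26A1, MMP11, LRRC15, GDF10, ALDH1A2, SPON1, NMUR2, ELN and TMEM119, with log2 differences from 6.38 to 8.82. Several are extracellular matrix genes, among them the collagen COL26A1, elastin (ELN), spondin 1 (SPON1) and the matrix metalloprotease MMP11. GLDN, which encodes gliomedin, a matrix-binding adhesion protein known from peripheral nerve, was at 2824, 2668 and 2267 in tumor and 9.80, 1.91 and 4.92 in luminal samples (8.82 ± 0.60 SE, limma adjusted p = 4.05e-07). ALDH1A2, an enzyme of retinoic acid synthesis, was at 3433, 5793 and 2654 in tumor and 35.9, 28.7 and 32.8 in luminal samples (6.81 ± 0.47 SE, limma adjusted p = 4.05e-07). GDF10, a ligand of the TGFβ superfamily, was at 1627, 1108 and 1105 in tumor and 3.27, 7.65 and 17.2 in luminal samples (7.17 ± 0.64 SE, limma adjusted p = 9.33e-06). These 3 genes had similar levels in the 3 tumors, and no luminal value came near them. LRRC15, a membrane protein of activated fibroblasts, spread more, with 1867, 982 and 156 in tumor and 13.1, 1.91 and 0 in luminal samples (7.58 ± 1.06 SE, limma adjusted p = 0.000411), and was lowest in the tumor of C5R, like MMP11 at 3038, 2561 and 98.3 in tumor. NMUR2, a receptor of the peptide neuromedin U, had no read in any luminal sample and 76.5, 144 and 93.3 rescaled reads in tumor, which makes it at least 71.4-fold higher against a floor of 3 reads over the luminal group.

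The 10 genes with the largest fall were GLYCAM1, DEFB52, REG3B, REG3A, CSN2, SPT1, FABP4, WAP, ATP13A4 and DMKN, from -9.09 to -7.06. They include milk proteins, the antimicrobial lectins REG3A and REG3B and the beta-defensin DEFB52. REG3B was at 0.455, 7.59 and 8.94 in tumor and 928, 4776 and 1996 in luminal samples (-8.70 ± 0.80 SE, limma adjusted p = 1.35e-05). ATP13A4, a transporter ATPase, was at 20.03, 14.4 and 35.2 in tumor and 5296, 5180 and 2627 in luminal samples (-7.52 ± 0.51 SE, limma adjusted p = 4.05e-07). FABP4, a fatty acid carrier best known from adipocytes and endothelium, was at 836 in the tumor of C2R, less in the other tumors and 37564, 91214 and 15108 in luminal samples (-7.75 ± 0.94 SE, limma adjusted p = 0.000355). The pericyte and adipocyte list, which holds FABP4 and also hemoglobin genes such as HBB, gave 2 higher and 4 lower of 10 tested. Without C2N, C2R and C5R, 3, 2 and 5 of these 6 calls held. All 20 calls on the genes with the largest rise or fall held with each rat left out in turn.

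Most milk genes measured were lower in tumor. Of 19 milk and milk fat genes tested, 12 were lower and 2 higher in tumor, with a median of -2.87, and the median was alike in the 3 rats (-3.30, -3.02 and -3.29). CSN2, β-casein, was at 5.46, 0 and 2.23 in tumor and 369, 489.9 and 2183 in luminal samples (-8.06 ± 0.89 SE, limma adjusted p = 3.35e-05). WAP, whey acidic protein, was at 4.55, 25.8 and 16.8 in tumor and 4620, 4258 and 919 in luminal samples (-7.57 ± 0.71 SE, limma adjusted p = 1.92e-05). LALBA, the regulatory subunit of lactose synthase, was at 2868, 9695 and 5686 in tumor and 327052, 516084 and 156204 in luminal samples (-5.78 ± 0.73 SE, limma adjusted p = 0.000105). In each case the lowest luminal value was above the highest tumor value. The caseins CSN1S1 and CSN1S2B differed by -3.49 and -4.88 on the log2 scale, and the folate receptor FOLR1 by -4.80. CSN3, κ-casein, differed by -3.23 ± 0.73 SE (limma adjusted p = 0.00529), a call lost without rat C2R (adjusted p = 0.0769 without rat C2R). GLYCAM1, a mucin-like milk glycoprotein, had no read in any tumor and 533, 1483 and 203 rescaled reads in luminal samples, at least 1310-fold lower in tumor against a floor of 3 reads over the group.

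SPP1 and RMT1, in contrast, were higher in tumor. SPP1, osteopontin, a phosphoprotein of milk and of bone matrix, was at 2755, 2219 and 2688 in tumor and 127, 47.8 and 45.9 in luminal samples (5.26 ± 0.50 SE, limma adjusted p = 1.33e-05). RMT1, a member of the milk list that RefSeq now names SMIM38, was at 2086, 8589 and 4663 in tumor and 490.1, 404 and 82.03 in luminal samples (4.10 ± 0.69 SE, limma adjusted p = 0.00133). The lowest tumor value was above the highest luminal value for both. RMT1 is counted here by its place in the list, and whether it has a part in milk was not tested. Each of the 14 milk calls held with rat as a block, and 12, 9 and 12 of them held without C2N, C2R and C5R.

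**Figure D2:**
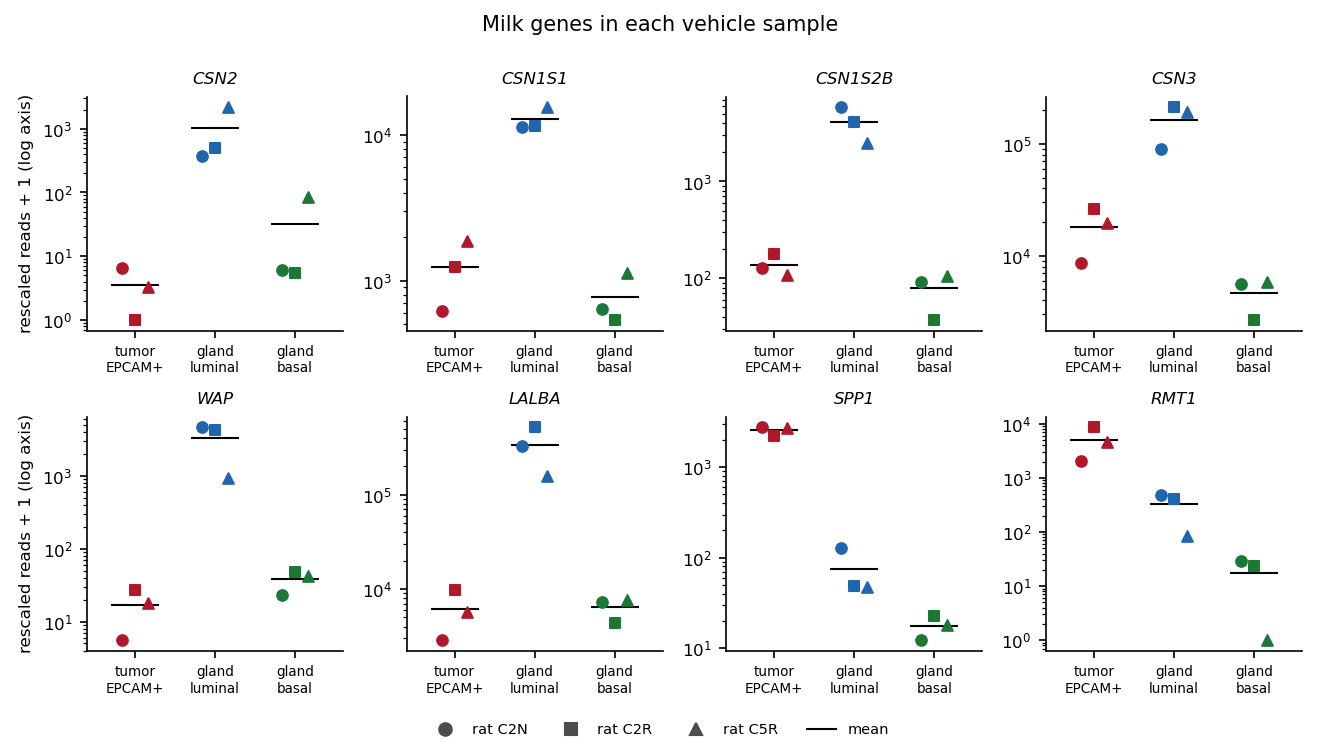
Rescaled reads plus 1 (log axes) of 8 genes of the milk list in tumor EPCAM+, gland luminal and gland basal samples of the 3 vehicle rats, with marker shapes for the rat and bars for the mean of 3. The 4 caseins, WAP and LALBA lay lower in every tumor than in every luminal sample, and SPP1 and RMT1 higher.

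The casein genes CSN2, CSN1S1, CSN1S2A and CSN1S2B and GLYCAM1 hold a short motif close to their start, and these stretches are shown because the milk list had a median below 0 in each of the 3 rats. RefSeq windows (GRCr8, 250 bases before to 50 after the start) exist for 10 of the 12 milk genes that fell. TTCNNNGAA, which reads the same on both strands and is known to bind STAT5, the transcription factor of prolactin signaling, was found in 5 of these 10 and in 8.68% of 27457 promoters. Capitals mark it in the following stretches, written 5′ to 3′ on the strand of the gene.
CSN2: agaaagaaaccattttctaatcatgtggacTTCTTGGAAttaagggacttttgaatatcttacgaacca
CSN1S1: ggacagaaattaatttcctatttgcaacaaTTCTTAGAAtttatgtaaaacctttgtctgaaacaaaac
CSN1S2A: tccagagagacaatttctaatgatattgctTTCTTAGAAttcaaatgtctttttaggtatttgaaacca
CSN1S2B: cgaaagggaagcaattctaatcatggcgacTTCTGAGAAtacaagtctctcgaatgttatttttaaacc
GLYCAM1: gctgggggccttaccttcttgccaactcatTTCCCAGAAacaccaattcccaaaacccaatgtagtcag
They lie at chr14:20601697-20601765 (plus strand), chr14:20638911-20638979 (minus strand), chr14:20574535-20574603 (minus strand), chr14:20545680-20545748 (minus strand) and chr7:136561436-136561504 (minus strand). The motif began 97 bases before the start in CSN2, 100 before it in CSN1S1 and CSN1S2B and 175 before it in GLYCAM1. WAP, LALBA, CSN3, PLIN2 and MFGE8 do not hold these letters within the window. A match is a description of the letters, and binding was not measured.

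A part of the progenitor and alveolar genes of luminal cells was lower in tumor. Of 18 progenitor and alveolar genes, 8 were lower and 1 was higher, with a median of -1.45. ELF5, the transcription factor of alveolar fate, was at 30.1, 71.3 and 46.4 in tumor and 654, 503 and 258 in luminal samples (-3.22 ± 0.58 SE, limma adjusted p = 0.00121). EHF, an epithelial ETS factor, was at 227, 432 and 924 in tumor and 1938, 2771 and 5116 in luminal samples (-2.74 ± 0.56 SE, limma adjusted p = 0.00311), with its call lost without C2R (adjusted p = 0.0539 without rat C2R). The 3 tumors lay below the 3 luminal samples for both. Of these 9 calls, 5, 2 and 7 held without C2N, C2R and C5R, and 5 with scaling by total reads.

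Of 17 hormone-sensing genes, 3 were higher and 0 lower (17.6% called, beside 22.9% of all genes), with a median of 0.52. ESR1, the estrogen receptor, was at 24.6, 22.8 and 91.6 in tumor and 26.1, 26.8 and 50.9 in luminal samples, a log2 difference of 0.18 that did not pass the test (limma adjusted p = 0.905). PGR, the progesterone receptor, differed by -0.33 (limma adjusted p = 0.746) and FOXA1, a pioneer factor of estrogen receptor binding, by 1.93 (limma adjusted p = 0.0566). Values of these 3 genes overlapped between the groups. CALCA, which encodes calcitonin and the peptide CGRP, rose, with 57.4, 124 and 159 in tumor and 0, 0 and 4.10 in luminal samples (5.93 ± 1.04 SE, limma adjusted p = 0.00108). TBX3, a T-box factor of mammary development, was at 662, 838 and 582 in tumor and 167, 76.5 and 116 in luminal samples (2.58 ± 0.49 SE, limma adjusted p = 0.00183), and its call was lost without C2R (adjusted p = 0.0856 without rat C2R). Without C2N, C2R and C5R 3, 1 and 2 of the 3 calls held.

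Some basal and myoepithelial genes were higher in tumor than in luminal cells, and most were below their level in basal cells. The luminal gate took CD29low cells, which leaves out CD29high basal cells, and the tumor gate did not use CD29. Differences from luminal cells in this list are therefore not independent of the sort. Of 20 tested, 7 were higher and 0 lower than in luminal samples, with a median of 1.04. Against basal samples 16 were lower and 0 higher, with a median of -4.06, where 14.8% of all 12835 genes tested were lower and 14.5% higher. KRT5, a basal keratin, was at 1296, 1821 and 1132 in tumor and 173, 237 and 869.5 in luminal samples, and at 30254, 25814 and 39228 in basal samples. It differed by 2.07 from luminal cells (limma adjusted p = 0.0152, 0.16 without rat C2N and 0.245 without rat C2R) and by -4.43 from basal cells, a comparison whose size factors were set over its own 6 samples, so its differences are not on exactly the scale of the values listed. CAV1, caveolin 1, was at 6382, 6742 and 6492 in tumor and 493, 633 and 1938 in luminal samples (2.95 ± 0.56 SE, limma adjusted p = 0.00192). ACTA2, smooth muscle actin, did not pass the test against luminal cells (0.88, limma adjusted p = 0.224). Of the 7 calls 4, 0 and 6 held without C2N, C2R and C5R.

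Genes of the interstitial matrix were the list with the largest share of members higher in tumor among the 39 lists. Of 21 fibrillar collagen and matrix genes tested, 17 were higher and 0 lower, with a median of 4.32, and 11 of the calls held with each rat left out in turn. COL1A1, a chain of type I collagen, was at 261381, 238385 and 33867 in tumor and 5048, 1822 and 532 in luminal samples (6.24 ± 0.92 SE, limma adjusted p = 0.000634). COL3A1, type III collagen, was at 540530, 367728 and 21870 in tumor and 3192, 3603 and 1182 in luminal samples (6.09 ± 1.04 SE, limma adjusted p = 0.00178). POSTN, periostin, was at 42697, 26924 and 38806 in tumor and 807, 597 and 257 in luminal samples (6.15 ± 0.58 SE, limma adjusted p = 1.33e-05). COL1A1 and COL3A1 were lowest in the tumor of C5R, which still exceeded every luminal sample, while POSTN was alike in the 3 tumors. LUM, COL6A2 and COL15A1 rose by 5.89, 5.08 and 5.10. TNC, tenascin C, differed by 5.34 ± 1.10 SE (limma adjusted p = 0.0104), and its call was lost without C2R or C5R (adjusted p = 0.0713 without rat C2R, 0.0595 without rat C5R). COL1A2, the other chain of type I collagen, was in the tumor table alone and was not tested. It held only 6.37, 3.03 and 0.559 rescaled reads in tumor, far below COL1A1. The cause of this gap was not tested, so its values are not read here as a level of expression. The fibroblast markers, which share COL1A1, COL3A1, LUM and DCN with this list, moved with it as given above.

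Matrix proteases and their inhibitors were mostly higher where they differed. Of 25 genes, 12 were higher and 2 lower, with a median of 2.01. MMP13, a collagenase, was at 1749, 3883 and 2284 in tumor and 62.1, 84.2 and 109.1 in luminal samples (4.89 ± 0.48 SE, limma adjusted p = 1.35e-05). MMP2, a gelatinase, was at 80076, 72784 and 6477 in tumor and 931, 1074 and 741 in luminal samples (5.21 ± 0.83 SE, limma adjusted p = 0.000926). Tumor and luminal values did not overlap for either, and MMP2 was lowest in the tumor of C5R. PLAT, tissue plasminogen activator, rose by 3.74 ± 0.64 SE (limma adjusted p = 0.000918). The 2 genes that fell were TIMP1, a metalloprotease inhibitor, at 7375, 11499 and 4666 in tumor and 110359, 218971 and 106095 in luminal samples (-4.22 ± 0.68 SE, limma adjusted p = 0.000634), and PLAUR, the urokinase receptor, at -3.13 on the log2 scale (limma adjusted p = 0.0051, and 0.187 without rat C2R). Of the 14 calls 12, 7 and 14 held without C2N, C2R and C5R.

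Of 18 transcription factors of epithelial-mesenchymal transition and basal identity, 8 were higher and 2 lower, with a median of 2.22. SNAI1, a repressor of E-cadherin, was at 2794, 2752 and 605 in tumor and 75.2, 134 and 184 in luminal samples (3.75 ± 0.60 SE, limma adjusted p = 0.000677). TWIST1, a factor of mesenchymal cells, was at 574, 618 and 279.8 in tumor and 29.4, 105.2 and 50.04 in luminal samples (3.08 ± 0.59 SE, limma adjusted p = 0.00195). Tumor and luminal values did not overlap for either, and TWIST2 rose by 3.89. SOX4, a SOX factor, fell by 2.06 on the log2 scale (limma adjusted p = 0.0127), a call lost without C2N or C2R (adjusted p = 0.0787 without rat C2N, 0.14 without rat C2R). Basement membrane and integrin genes gave 10 higher and 1 lower of 17, with a median of 1.89. Only the luminal gate selected on CD29, so this list and the one before it are not independent of the sort. COL4A1, a type IV collagen of basement membranes, was at 10779, 24969 and 7109 in tumor and 908, 1408 and 609 in luminal samples (3.75 ± 0.59 SE, limma adjusted p = 0.000565). ITGA5, the α chain of the fibronectin receptor, differed by 3.90 ± 0.69 SE (limma adjusted p = 0.00178). Of the 10 calls in the first list 3, 3 and 8 held without C2N, C2R and C5R, and of the 11 in the second 5, 2 and 10.

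**Figure D3:**
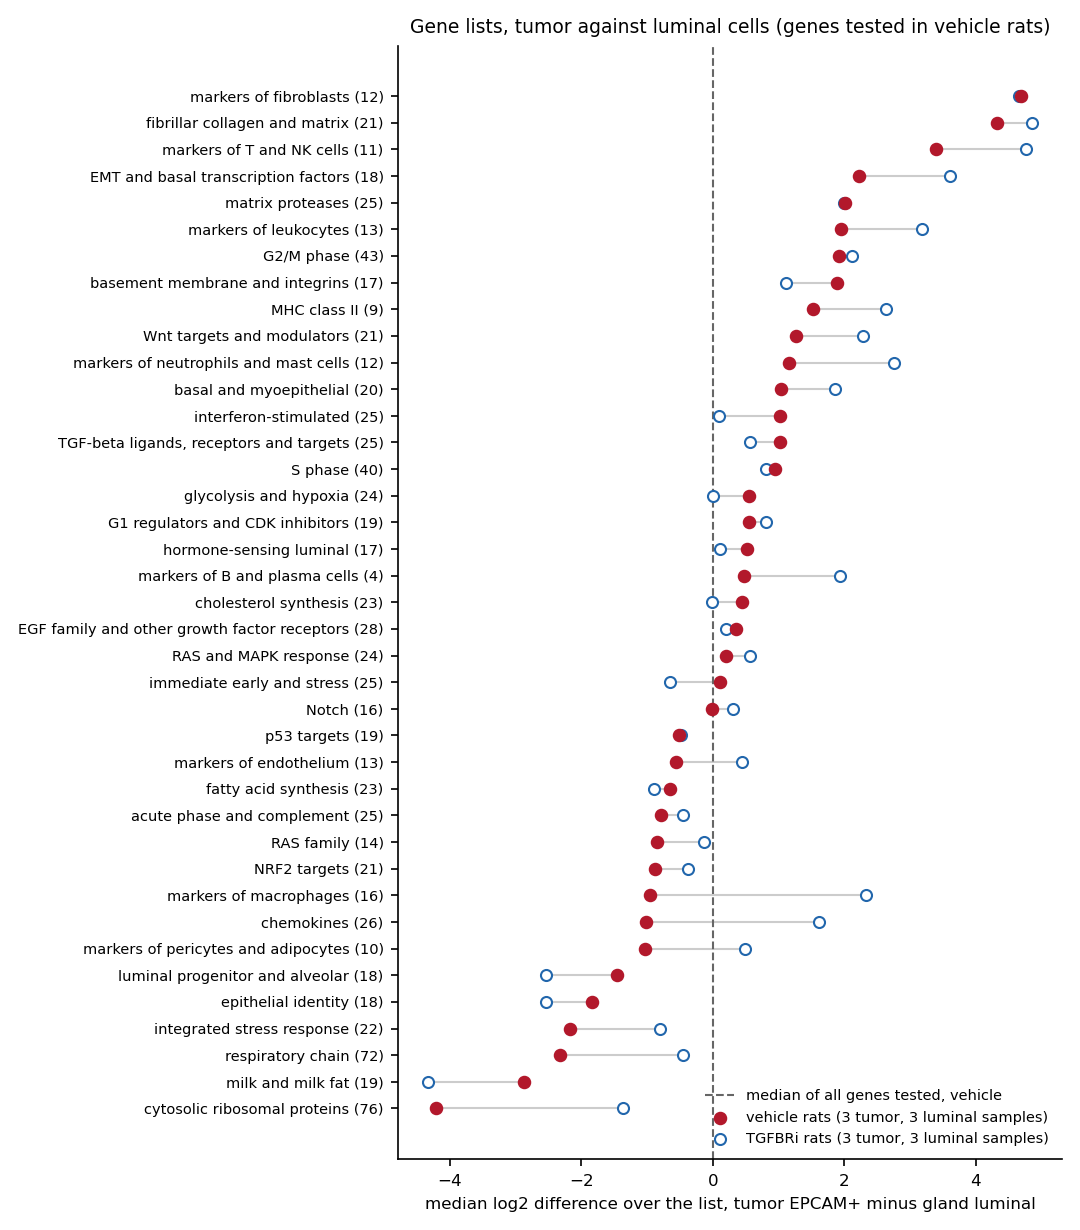
Median log2 difference of tumor EPCAM+ minus gland luminal samples for 39 gene lists in vehicle rats (filled) and in TGFBRi rats (open), with the number of genes tested in brackets and a dashed line at the median of all genes in vehicle rats. Fibroblast and matrix lists lie farthest right and ribosomal protein and milk genes farthest left in vehicle rats. With scaling by total reads the vehicle medians move up, that of all genes to 1.09 and those of some lists by less. The medians of the RAS family, chemokine, acute phase, fatty acid, p53, NRF2, endothelium, macrophage and Notch lists then change sign.

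A part of the cell division genes was higher in tumor. Of 43 genes of the G2 and M phases tested, 14 were higher and 0 lower, with a median of 1.92. Of 40 S phase genes, 10 were higher and 2 lower, with a median of 0.94 (per-rat medians 0.66, 0.39 and 1.815). The S phase list summed to 8878, 7201 and 12194 in tumor and 8508, 9346 and 8929 in luminal samples, so the sums overlapped. The luminal sum also holds HELLS, which is in the gland table alone. CDK1, the kinase that drives entry into mitosis, was at 187, 138 and 278 in tumor and 0, 32.5 and 1.64 in luminal samples (5.44 ± 1.11 SE, limma adjusted p = 0.00323). RRM2, a subunit of ribonucleotide reductase, was at 114, 49.3 and 188 in tumor and 3.27, 0 and 0 in luminal samples (5.99 ± 1.05 SE, limma adjusted p = 0.00103). KIF20A, a kinesin of cytokinesis, was at 236, 130.5 and 359 in tumor and 39.2, 22.96 and 16.4 in luminal samples (3.13 ± 0.66 SE, limma adjusted p = 0.00371). Every tumor value of these genes lay above every luminal one, and the luminal values of CDK1 and RRM2 rest on few reads. TK1 and TACC3, a thymidine kinase and a spindle protein, rose by 3.96 and 3.58, and all 5 calls held with each rat left out in turn. CCNB2, cyclin B2, rose by 4.91 ± 1.08 SE (limma adjusted p = 0.00462), but lost its call without C2R (adjusted p = 0.0713 without rat C2R).

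The rats differed in the G2/M list. The median G2/M difference was 0.77, 0.78 and 4.38 in rats C2N, C2R and C5R. The summed G2/M level was 4750, 3221 and 9017 in tumor and 3352, 2905 and 1446 in luminal samples, so that the tumor of C2R lay below the luminal sample of C2N. MKI67, the proliferation antigen Ki67, was at 55.5, 25.03 and 240.2 in tumor and 91.5, 28.7 and 13.1 in luminal samples and did not pass the test (1.06, limma adjusted p = 0.434). TOP2A, a DNA topoisomerase, behaved likewise (0.98, limma adjusted p = 0.557). NASP, a histone chaperone of S phase, fell by 2.61 on the log2 scale (limma adjusted p = 0.00305), with its call lost without C2N or C2R (adjusted p = 0.0768 without rat C2N, 0.0608 without rat C2R). Of the 14 G2/M calls 9, 5 and 9 held without C2N, C2R and C5R, and of the 12 S phase calls 4, 3 and 10. In tumor CD45+ samples, the leukocytes that the sort separated from the EPCAM+ cells, the G2/M sum was 13081, 11412 and 10407.

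**Figure D4:**
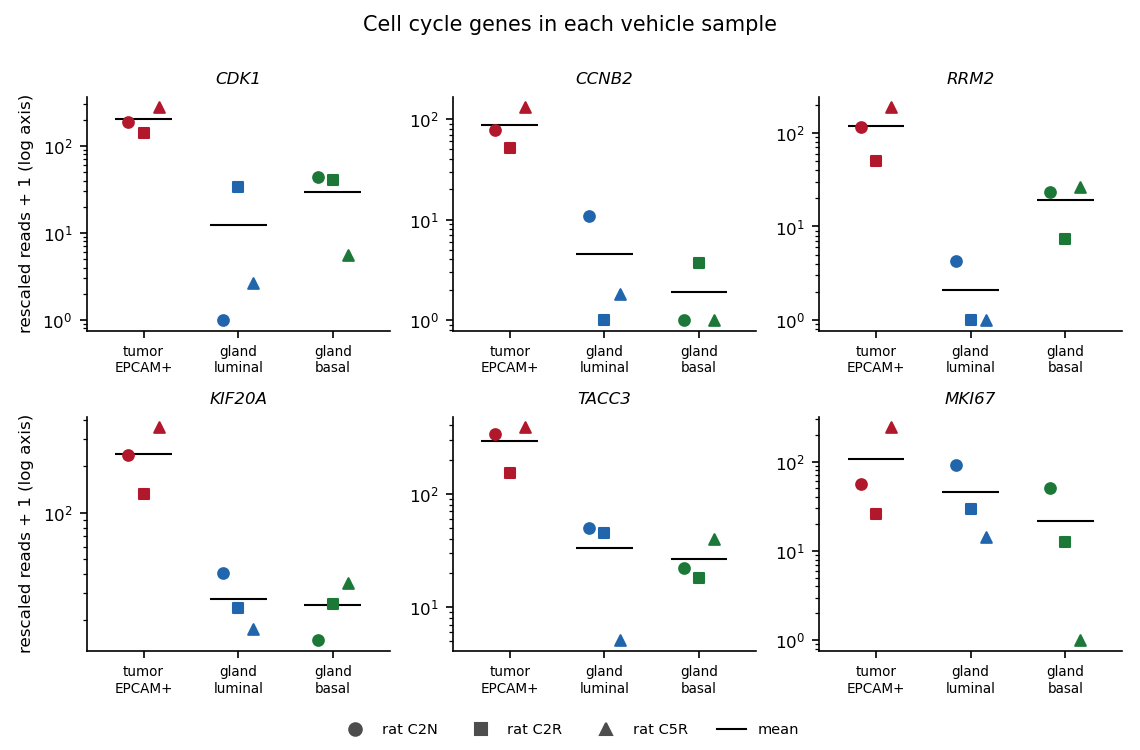
Rescaled reads plus 1 (log axes) of 6 cell cycle genes in tumor EPCAM+, gland luminal and gland basal samples of the 3 vehicle rats, with marker shapes for the rat and bars for the mean of 3. CDK1, CCNB2, RRM2, KIF20A and TACC3 lay higher in every tumor than in every luminal sample, and MKI67 overlapped.

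Promoters of mitotic genes are shown because 14 of them were higher in tumor. RefSeq windows exist for 10 of the 14. TTTGAA, the core of the cell cycle homology region that the DREAM and MuvB complexes are known to bind, was searched on both strands and found in 8 of the 10 and in 18.1% of 27457 promoters. CCAAT, the box bound by NF-Y, was found on either strand in 9 of the 10 and in 37.7% of all. In CDCA8 a match of each motif shares 1 base, and capitals mark TTTGAA in the 4 genes with the largest rise that hold it.
CDK1: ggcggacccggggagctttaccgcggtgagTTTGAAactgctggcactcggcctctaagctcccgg
CCNB2: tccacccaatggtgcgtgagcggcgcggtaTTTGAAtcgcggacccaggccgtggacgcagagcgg
HMMR: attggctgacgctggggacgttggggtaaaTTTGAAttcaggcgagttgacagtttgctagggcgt
TACC3: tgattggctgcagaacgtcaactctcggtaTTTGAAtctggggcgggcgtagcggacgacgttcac
They lie at chr20:19265247-19265312 (plus strand), chr8:79981666-79981731 (minus strand), chr10:25665226-25665291 (minus strand) and chr14:81289705-81289770 (minus strand), where the motif begins 16, 43, 46 and 42 bases before the start. The call of HMMR, a hyaluronan receptor of the spindle, was lost without C2R or C5R (adjusted p = 0.103 without rat C2R, 0.0506 without rat C5R). GTSE1 and KIF20A do not hold TTTGAA within the window.

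Of 19 regulators of the G1 phase tested, 5 were higher and 2 lower, with a median of 0.55. The share called was 36.8%, beside 22.9% of all genes. Over all genes 11.5% were higher and 11.4% lower. CDKN2A, the locus of the CDK inhibitor p16 and of ARF, was at 138, 88.8 and 43.6 in tumor and 3.27, 1.91 and 0.820 in luminal samples (4.86 ± 0.97 SE, limma adjusted p = 0.0025), a call lost without C2R (adjusted p = 0.0706 without rat C2R). CDKN1A, the CDK inhibitor p21, was at 1191, 1587 and 1165 in tumor and 4345, 4430 and 3251 in luminal samples (-1.61 ± 0.49 SE, limma adjusted p = 0.0261), a call lost without C2N or C2R (adjusted p = 0.168 without rat C2N, 0.222 without rat C2R) and with scaling by total reads. CCND1, cyclin D1, did not pass the test (0.55, limma adjusted p = 0.446), while CCND2, cyclin D2, rose by 2.62 (limma adjusted p = 0.0027, 0.0631 without rat C2N and 0.0621 without rat C2R). Without C2N, C2R and C5R 1, 0 and 7 of the 7 calls held.

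NMU tumors in rats are known to carry activating mutations of HRAS, so genes of that pathway were examined, although expression does not show a mutation. HRAS was at 659.7, 845 and 768 in tumor and 1046, 2792 and 1942 in luminal samples and did not pass the test (-1.24, limma adjusted p = 0.0779). Of 24 genes that respond to RAS and MAPK signaling, 6 were higher and 4 lower, with a median of 0.20 (-0.11 without rat C2N and -0.02 without C2R). ETV4, an ETS factor induced by ERK, was at 1481, 1578 and 1156 in tumor and 232, 149 and 230.5 in luminal samples (2.79 ± 0.45 SE, limma adjusted p = 0.000634). SPRY1, a feedback inhibitor of receptor tyrosine kinases, was at 859.5, 1350 and 859 in tumor and 68.6, 159 and 234 in luminal samples (2.86 ± 0.52 SE, limma adjusted p = 0.00137). Tumor values lay above luminal ones for both, and both calls held with each rat left out. HBEGF, an EGF family ligand, was at 1422, 2161 and 3747 in tumor and 17415, 16476 and 18429 in luminal samples (-2.95 ± 0.57 SE, limma adjusted p = 0.00204), and IER3 and FOSL1 fell with it (-3.44 and -2.93). These 3 calls were lost without C2R (adjusted p = 0.0605, 0.0597 and 0.0843). In the RAS family list 1 gene of 14 was higher and 3 were lower (28.6% called, beside 22.9% of all genes), with a median of -0.84 that turned to 0.29 with scaling by total reads. RASAL2, a RAS GTPase-activating protein, was at 100.6, 138 and 175 in tumor and 1418, 2681 and 1265 in luminal samples (-3.64 ± 0.48 SE, limma adjusted p = 0.000134). Without C2N, C2R and C5R 6, 2 and 8 of the 10 response calls held and 1, 2 and 3 of the 4 in the RAS family.

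Growth factor ligands and receptors gave 5 higher and 4 lower of 28, with a median of 0.36. MET, the hepatocyte growth factor receptor, was at 108.4, 62.97 and 121 in tumor and 679.6, 478 and 951 in luminal samples (-2.84 ± 0.50 SE, limma adjusted p = 0.00116). IGFBP4, a binding protein of insulin-like growth factors, was at 20898, 42210 and 9423 in tumor and 683, 1362 and 1793 in luminal samples (4.09 ± 0.64 SE, limma adjusted p = 0.000524), and IGFBP3 rose by 3.91. The groups did not overlap for these genes. EGFR and ERBB2, receptors of EGF ligands, did not pass the test (-0.32 and 1.11, limma adjusted p = 0.735 and 0.165). The 9 calls of the list came to 5, 4 and 9 without C2N, C2R and C5R.

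Of 21 Wnt targets and modulators, 8 were higher and 1 lower, with a median of 1.26. NKD2, a feedback inhibitor of Wnt signaling, was at 2092, 2904 and 778 in tumor and 52.3, 84.2 and 42.7 in luminal samples (4.85 ± 0.55 SE, limma adjusted p = 3.86e-05). WNT5B, a noncanonical Wnt ligand, was at 252, 453 and 242 in tumor and 4156, 5911 and 6105 in luminal samples (-4.13 ± 0.48 SE, limma adjusted p = 4.55e-05). The groups were apart for both genes in opposite directions. LEF1, a transcription factor of the pathway, rose by 3.96 ± 1.00 SE (limma adjusted p = 0.0102), with its call lost without C2N or C2R (adjusted p = 0.0523 without rat C2N, 0.134 without rat C2R). Among 25 TGFβ ligands, receptors and targets, 6 were higher and 3 lower, with a median of 1.02. TGFBR2, the type II receptor, was at 2290, 2108 and 565 in tumor and 209, 170.3 and 362 in luminal samples (2.57 ± 0.56 SE, limma adjusted p = 0.00449), and SMAD3, a signal transducer of the pathway, fell by 2.27 on the log2 scale (limma adjusted p = 0.00434). The call of SMAD3 was lost with scaling by total reads, and both calls were lost without C2R (adjusted p = 0.129 and 0.0566). In the Notch list 3 genes were higher and 1 was lower of 16, with a median near 0 that was 1.13 with scaling by total reads, 1.20 without rat C2N and 1.24 without its tumor sample. The share of this list called was 25%, beside 22.9% of all genes. HES1, a Notch target, was at 1359, 1876 and 1777 in tumor and 29128, 12807 and 10016 in luminal samples (-3.23 ± 0.58 SE, limma adjusted p = 0.00119). Left out in turn, rats C2N, C2R and C5R left 6, 2 and 8 of the 9 Wnt calls, 4, 1 and 9 of the 9 TGFβ calls and 2, 1 and 3 of the 4 Notch calls.

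Several chemokine genes were lower in tumor. Of 26 chemokines tested, 8 were lower and 0 higher by limma, with a median of -1.01 that turned to 0.08 with scaling by total reads. The per-rat median was -0.66, -2.91 and -1.50, and the median was -0.34 without rat C2R and -2.09 without the luminal sample of C5R. CXCL1, which attracts neutrophils, was at 32030, 35766 and 30059 in tumor and 413508, 1566890 and 594536 in luminal samples (-4.48 ± 0.78 SE, limma adjusted p = 0.00103). CXCL2 was at 263, 1640 and 2136 in tumor and 49597, 60603 and 39945 in luminal samples (-5.66 ± 0.72 SE, limma adjusted p = 0.000122). CXCL3 and CXCL6, which act on the same receptor family, differed by -5.19 and -4.98. Every tumor value of these 4 chemokines lay below every luminal one, and their calls held with each rat left out. Without C2R 5 of the 8 chemokine calls held, and chemokines called higher numbered 2 with rat as a block, 3 by edgeR, 4 by DESeq2 and 5 with scaling by total reads. GGGNNTTTC, part of sequences that NF-κB is known to bind, was found on either strand in 4 of the 7 chemokines that fell and have a promoter window, and in 4.52% of 27457 promoters. It is shown in capitals in the 3 of these 4 with the largest falls.
CXCL2: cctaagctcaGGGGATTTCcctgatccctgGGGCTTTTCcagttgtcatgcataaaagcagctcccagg
CXCL6: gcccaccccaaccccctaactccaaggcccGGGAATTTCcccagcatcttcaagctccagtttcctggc
CXCL1: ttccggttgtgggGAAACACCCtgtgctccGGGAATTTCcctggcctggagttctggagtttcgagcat
They lie at chr14:17467271-17467339 (minus strand), chr14:17596467-17596535 (minus strand) and chr14:17479367-17479435 (minus strand), where the motif nearest the start begins 54, 88 and 84 bases before it.

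Of 25 acute phase and complement genes, 5 were higher and 6 lower, with a median of -0.78 (0.34 with scaling by total reads). The per-rat median was 0.94, -1.57 and -0.90, and the median was -0.04 without rat C2R and -0.16 without the tumor sample of C5R. LCN2, lipocalin 2, an iron-binding protein of innate defense, was at 1369, 6133 and 5651 in tumor and 61111, 184844 and 72442 in luminal samples (-4.69 ± 0.73 SE, limma adjusted p = 0.000521). C1S, a serine protease of the complement C1 complex, was at 41394, 15949 and 2713 in tumor and 297, 432 and 336 in luminal samples (5.11 ± 0.79 SE, limma adjusted p = 0.000929). The groups were apart for both, in opposite directions. Of 25 interferon-stimulated genes, 6 were higher and 3 lower, with a median of 1.02. STAT2, a transducer of interferon signals, was at 1453, 749.5 and 1369 in tumor and 104.6, 51.7 and 304 in luminal samples (3.26 ± 0.59 SE, limma adjusted p = 0.00146). ISG15, a ubiquitin-like modifier, fell by 2.07 on the log2 scale (limma adjusted p = 0.0477), with overlapping groups and a call lost without C2N or C2R (adjusted p = 0.155 without rat C2N, 0.556 without rat C2R). Of the 11 acute phase and complement calls 5, 6 and 8 held without C2N, C2R and C5R, and of the 9 interferon calls 3, 4 and 7. None of 9 MHC class II genes passed limma's test, with 3 at an unadjusted p under 0.05, 2 called by edgeR and 3 by DESeq2, and 8 lay above 0, with a median of 1.53. With rat as a block, limma called 1 higher and edgeR called 1 higher. The per-rat median was 3.24, -0.51 and 1.26, the list summed to 78725, 10515 and 13727 in tumor and 6048, 11985 and 5078 in luminal samples, and the median was 0.68 without rat C2N.

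Most genes of the integrated stress response that were tested were lower in tumor than in luminal cells. Of 22 genes, 13 were lower and 1 was higher, with a median of -2.16. CHAC1, a glutathione-degrading enzyme induced by ATF4, was at 25.5, 17.4 and 117 in tumor and 2970, 2379 and 5156 in luminal samples (-6.42 ± 0.63 SE, limma adjusted p = 1.92e-05). TRIB3, a pseudokinase induced by the same factor, was at 104.7, 93.3 and 111 in tumor and 1934, 4426 and 6326 in luminal samples (-5.19 ± 0.50 SE, limma adjusted p = 1.35e-05). In basal cells of the same glands they stood at 2697, 2723 and 3857 and 5757, 6436 and 6498, so for these 2 genes the tumors lay below both cell types. The whole list summed to 53241, 44510 and 28395 in tumor, 80274, 136096 and 146380 in luminal and 215643, 230544 and 209200 in basal samples. As a share of reads on genes, tumor (0.356 to 0.44%) and luminal samples (0.353 to 0.832%) overlapped, and basal samples stood higher (1.44 to 1.56%). PHGDH, the entry enzyme of serine synthesis, differed by -2.56 ± 0.49 SE (limma adjusted p = 0.002). ATF4 itself differed by -2.55 ± 0.69 SE (limma adjusted p = 0.0149), with its call lost without C2N or C2R (adjusted p = 0.0947 without rat C2N, 0.114 without rat C2R). Of the 14 calls 11, 3 and 14 held without C2N, C2R and C5R, and 5 with scaling by total reads, PHGDH and ATF4 not among them.

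**Figure D5:**
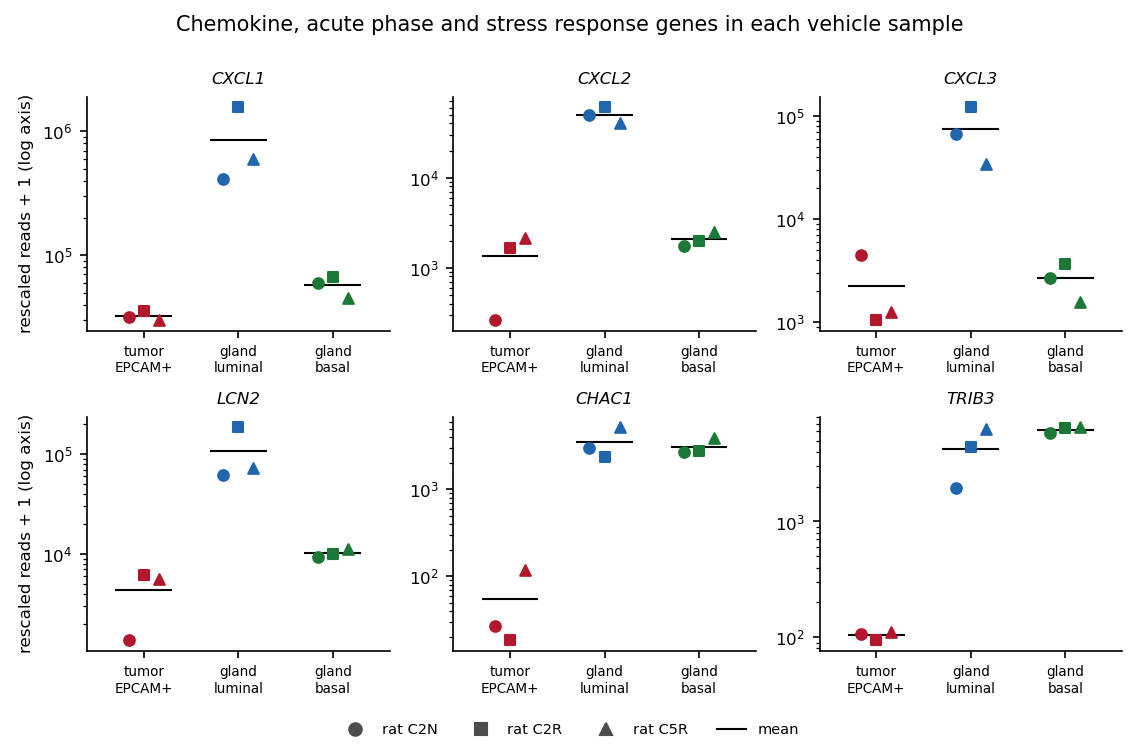
Rescaled reads plus 1 (log axes) of 3 chemokines, LCN2 and 2 genes of the integrated stress response in tumor EPCAM+, gland luminal and gland basal samples of the 3 vehicle rats, with marker shapes for the rat and bars for the mean of 3. All 6 genes lay lower in every tumor than in every luminal sample.

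Of 21 NRF2 targets, 7 were lower and 1 was higher, with a median of -0.88 (0.25 with scaling by total reads). FTH1, the ferritin heavy chain, was at 32059, 51773 and 39080 in tumor and 341196, 1208950 and 429026 in luminal samples (-3.81 ± 0.78 SE, limma adjusted p = 0.00312), and HMOX1, heme oxygenase 1, differed by -3.31. Both calls were lost without C2R (adjusted p = 0.0856 and 0.0872). None of the 8 NRF2 calls held without C2R, and 5 held without C2N. Of 19 p53 targets, 2 were higher and 3 lower (26.3% called, beside 22.9% of all genes), with a median of -0.52 (0.61 with scaling by total reads). AEN, a nuclease of apoptosis, was at 192, 179 and 147 in tumor and 3725, 1167 and 849 in luminal samples (-3.17 ± 0.54 SE, limma adjusted p = 0.000905). Of 25 immediate early and stress genes, 5 were higher and 2 lower (28% called, beside 22.9% of all genes), with a median of 0.11 (-0.08 without rat C2R). The list summed to 249157, 318717 and 282297 in tumor and to 375875, 416360 and 518165 in luminal samples. Every tumor sum was thus the lower, but shares of reads on genes overlapped (2.06 to 3.54% in tumor, 1.47 to 2.95% in luminal samples). NR4A1 and EGR2, immediate early transcription factors, rose by 3.52 and 5.0 on the log2 scale (limma adjusted p = 0.000634 and 0.000752). Their basal values were 4676, 4821 and 8462 and 1029, 889.9 and 1683, and tumor values were 10242, 5543 and 3262 and 2445, 673 and 298, so the basal range lay within the tumor range for both. Without C2N, C2R and C5R 1, 1 and 3 of the 5 p53 calls and 4, 3 and 7 of the 7 immediate early calls held.

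Nearly every gene of the cytosolic ribosomal proteins was lower in tumor. Of 76 tested, 72 were lower and 0 higher, with a median of -4.21, and 63 of the calls held with each rat left out in turn. RPS27, a protein of the small subunit, was at 1596, 5456 and 1821 in tumor and 575271, 220542 and 34469 in luminal samples (-6.02 ± 0.91 SE, limma adjusted p = 0.000634). RPL4, a protein of the large subunit, was at 3230, 4052 and 4633 in tumor and 9531, 9275 and 9143 in luminal samples and did not pass the test (-1.25, limma adjusted p = 0.105). The list took 0.787, 2.04 and 1.46% of reads on genes in tumor, 21.3, 13.6 and 5.10% in luminal and 3.79, 3.50 and 3.18% in basal samples. Its share therefore varied more among the 3 luminal libraries than among the tumor or basal ones, and the per-rat median was -5.61, -4.06 and -2.96. With scaling by total reads 71 of the 72 calls held, with a median of -3.08. Ribosomal protein genes can share reads with processed pseudogenes, which was not measured here, so single members are uncertain. Of 72 nuclear-encoded respiratory chain genes, 43 were lower and 2 higher, with a median of -2.32. COX6A1, a subunit of cytochrome c oxidase, was at 6358, 7300 and 4072 in tumor and 214318, 124263 and 19170 in luminal samples (-3.80 ± 0.81 SE, limma adjusted p = 0.00405), with a call lost without C2N or C2R (adjusted p = 0.0523 without rat C2N, 0.0642 without rat C2R). NDUFA4L2, a hypoxia-inducible relative of a respiratory chain subunit, rose by 2.64 (limma adjusted p = 0.0104, 0.0674 without rat C2R). Of the 45 respiratory calls 6, 10 and 44 held without C2N, C2R and C5R.

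The metabolic lists were called at shares of 16.7% (glycolysis and hypoxia), 13% (cholesterol synthesis) and 26.1% (fatty acid synthesis), beside 22.9% of all genes. Glycolysis and hypoxia gave 3 higher and 1 lower of 24 (median 0.55), and cholesterol synthesis 3 higher and 0 lower of 23 (median 0.45). Fatty acid synthesis gave 4 higher and 2 lower of 23, with a median of -0.65 (0.48 with scaling by total reads and 0.10 without rat C5R). THRSP, a regulator of lipogenesis, was at 158, 445 and 431 in tumor and 1179, 2319 and 2613 in luminal samples (-2.62 ± 0.52 SE, limma adjusted p = 0.0025). SCD2, a fatty acid desaturase, was at 2888, 4128 and 2849 in tumor and 349.6, 186 and 443 in luminal samples (3.40 ± 0.48 SE, limma adjusted p = 0.000246). NDRG1, a gene induced by hypoxia and differentiation, was at 503, 1637 and 1271 in tumor and 12439, 17392 and 45971 in luminal samples (-4.40 ± 0.64 SE, limma adjusted p = 0.000308). Both falls and the rise of SCD2 were seen in every rat, with no overlap. Of the 4, 3 and 6 calls of the glycolysis, cholesterol and fatty acid lists, 1, 0 and 2 held without C2R and 1, 0 and 3 without C2N.

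Markers of cells outside the epithelium moved in both directions beside these groups. T and NK cell markers gave 3 higher and 0 lower of 11 (27.3% called, beside 22.9% of all genes). Their median was 3.40 (per-rat medians 7.03, 1.015 and 1.22), and the sum of the 12 in both tables was 5302, 719.9 and 224 in tumor and 124, 409.5 and 92.7 in luminal samples. Neutrophil and mast cell markers gave 4 higher of 12 (33.3% called), led by the mast cell tryptase TPSAB1 at 3540, 1133 and 16.8 in tumor and 3.27, 19.1 and 3.28 in luminal samples (5.86 ± 1.79 SE, limma adjusted p = 0.0479), where the tumor of C5R fell within the luminal range and the call was lost without C2N or C2R (adjusted p = 0.148 without rat C2N, 0.122 without rat C2R). For both lists the tumor of C2N was highest and that of C5R lowest. Without C2N, C2R and C5R 0, 1 and 3 of the 3 T and NK calls and 2, 0 and 3 of the 4 neutrophil and mast cell calls held. B and plasma cell markers gave none of 4 called by limma, with 0 at an unadjusted p under 0.05, 0 called by edgeR and 0 by DESeq2. Macrophage markers summed to 7593, 3905 and 3329 in tumor and 9420, 19545 and 19338 in luminal samples, with 1 of 16 lower (6.25% called, median -0.96, but 0.10 without rat C2R, -0.26 without its luminal sample and 0.16 with scaling by total reads). This list shares CD14 with the progenitor and alveolar list of luminal cells, and the leukocyte markers summed to only 1898, 2889 and 2498 in luminal samples. Which cells gave the macrophage sum was not tested. Endothelial markers gave 3 lower of 13 (23.1% called, beside 22.9% of all genes, median -0.56, and 0.49 with scaling by total reads), of which 1, 2 and 2 held without C2N, C2R and C5R. In luminal samples 1 marker each of the T and NK cell, B and plasma cell, and neutrophil and mast cell lists was at 0 in every sample, and in tumor samples 1 of the pericyte and adipocyte list, the hemoglobin gene HBB.

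In rats given TGFBRi before NMU, the same comparison in other animals called 1659 of 12817 genes (12.9%), 1026 higher (8.00%) and 633 lower (4.94%). Of 12674 genes tested in both, 965 were called in both, which is 32.7% of the vehicle calls and 58.2% of the TGFBRi calls, and all 965 had the same direction. The median over all genes was 0.08. No sample is shared, but the gates and the separate processing of the tables are. All 10 of the largest rises in vehicle rats were also called here (log2 4.59 to 9.57), and 8 of the 10 largest falls, with GLYCAM1 (-4.32) and FABP4 (-2.40) not passing the test. Epithelial identity genes gave 14 lower and 0 higher (median -2.53), milk genes 14 lower and 1 higher (median -4.32), and fibrillar matrix genes 18 higher and 1 lower (median 4.85). Fibroblast markers were again higher beside them, 9 of 12. Leukocyte markers gave 11 of 13 higher, beside 4 of 13 in vehicle rats.

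Other lists had medians that differed in sign or size from those of vehicle rats, and these differences between lists were not tested. There were 8 lower and 5 higher of 26 chemokines (median 1.61, beside -1.01 in vehicle rats) and 5 lower and 1 higher of 22 integrated stress response genes (median -0.80, beside -2.16 in vehicle rats). The respiratory chain list gave 1 lower and 1 higher of 72 respiratory chain genes (median -0.45, beside -2.32 in vehicle rats). Macrophage markers had a median of 2.33, beside -0.96 in vehicle rats, with 1 of 16 called lower and 0 called higher.

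Ribosomal protein genes differed by a median of -1.36 in TGFBRi rats with none of 76 called by limma, with 33 at an unadjusted p under 0.05, 0 called by edgeR and 5 by DESeq2. Their share of reads was 4.75, 8.02 and 3.52% in luminal and 2.08, 1.59 and 5.93% in tumor samples of rats D2N, D3R and D4R. Whether TGFBRi changed the difference between tumor and luminal cells was tested as an interaction over the 12 samples, and limma called 0 genes, with 1487 at an unadjusted p under 0.05. The edgeR quasi-likelihood test also called 0, and DESeq2 called 248. Without rats D2N, D3R and D4R in turn, 181, 377 and 1391 genes were called in TGFBRi rats.

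Against basal cells of the same glands, the vehicle tumors gave 3759 of 12835 genes called (29.3%), 1864 higher (14.5%) and 1895 lower (14.8%), with a median of 0.14 over all genes. These values share the tumor samples with the comparison above and are set beside it. Milk genes, low in tumor against luminal cells (median -2.87), had a median of 0.67 against basal cells. The G2/M list had a median of 2.95 with 23 of 43 higher, against 1.92 with 14 higher for luminal cells. SPP1 and ALDH1A2 rose against both cell types (5.26 and 6.81 from luminal, 7.31 and 7.90 from basal cells). COL1A1 was at 17055, 56843 and 9270 in basal samples, beside summed fibroblast markers of 45565, 151537 and 25548 there, and its difference from basal cells was 2.69 (limma adjusted p = 0.0581). Chemokines and integrated stress response genes differed by medians of -0.22 and -2.79 from basal cells. Left out in turn, rats C2N, C2R and C5R gave 1384, 957 and 4084 calls.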

How the data were processed

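RNA of sorted rat mammary cells (under 10 ng per library) was sequenced by the authors, aligned to rn6 with STAR 2.5.1b, counted per gene with HTSeq and divided by DESeq2 1.30.1 size factors, per the study's methods and the submitters' processing notes. The deposited values are such signal values (normalized counts), 1 file per sample, with tumor and gland samples normalized and filtered apart (summed count of at least 10). Division by the smallest step of each file returned whole read counts for 100.0% of 311079 values above 0, to within 0.001. Genes in both tables (13176 of 13277 in tumor and 14655 in gland) were rescaled together with median-of-ratios size factors over 11146 genes. Genes whose summed values reached 10 were tested with limma 3.58.1 (trend, robust) on log2(rescaled reads + 1) in R 4.3.3, with Benjamini-Hochberg adjustment. The edgeR 4.0.16 quasi-likelihood test and DESeq2 1.42.0 on the recovered reads were alternatives. In simulated data of this comparison (12753 genes, 200 changed), 31% of log2 changes of 2 and 93% of log2 changes of 4 were recovered, with 3 false calls. The simulation changed only genes with a mean of at least 50, equally up and down, with independent noise per gene. It held no shift in composition between the groups, so its false calls are not an estimate for the real data. Tumor and gland samples pair by rat, from the labels, and deviations of same-rat samples correlated at -0.02, 0.17 and 0.06 over 9431 genes. Named genes are the 10 with the largest difference per direction among called, non-overlapping genes with a mean of at least 50, members of 39 gene lists, some of which share genes, and the 5 highest genes in 1 table only. The comparison, the lists and the promoter motifs were chosen with earlier results of these data known. The authors counted without regard to strand, so reads of overlapping and antisense genes cannot be told apart. The comparisons in TGFBRi rats and with basal cells were each rescaled over their own 6 samples, while the values listed for every sample use the scale of the 6 vehicle tumor and luminal samples. Promoter sequences are from RefSeq (GRCr8), matched by symbol, and the files' coordinates were not used. Some genes that this rule names are not reported here.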

Additional observations from a re-analysis of the deposited data

Results flagged for a closer look

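Genes present in the tumor table and not in the gland table took no part in the comparison and were looked at separately, since the gland table keeps only genes that passed its own filter. Among the highest in the vehicle tumors were MMP8, a neutrophil collagenase, with a mean of 174 rescaled reads over the 3 tumors, MCPT2, a mast cell protease, with 151, and the neutrophil defensins RATNP-3B and NP4 with 56.9 and 41.7. MCPT2 was at 298 and 156 in C2N and C2R and at 0 in C5R, and RATNP-3B and NP4 were also at 0 in C5R. MMP8 was present in every tumor. No luminal value stands beside them here, so no fold was computed.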

How the results depend on the processing

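With 3 rats, the number of genes called depends on single animals. In vehicle rats 2954 genes were called, between 644 and 4227 with 1 rat left out (fewest without C2R), and between 1290 and 3530 with 1 sample left out (fewest without the luminal sample of C2R). The range with 1 rat left out was 181 to 1391 in TGFBRi rats and 957 to 4084 against basal cells. Scaling by total reads called 4717 genes in vehicle rats and limma without trend and robust variances 1879. A replicate block for the rat gave 3099 calls, and limma kept every call on a gene named above, while edgeR with the block lost 5 of 117. The interaction with TGFBRi gave 0 calls by limma and edgeR and 248 by DESeq2. Of the 39 lists, 23 had a median above 0, with a range of 22 to 25 when a rat or sample was left out and 32 with scaling by total reads. Scaling by total reads turned the RAS family (0.29), fatty acid synthesis (0.48), p53 target (0.61) and NRF2 target (0.25) medians positive, as it did the Notch, chemokine, acute phase, macrophage and endothelium medians given above. The fatty acid synthesis median ranged from -0.62 to 0.10 with 1 rat or sample left out (0.10 without rat C5R and 0.06 without its luminal sample), and that of pericyte and adipocyte markers rose to 1.97 with genes of a mean of at least 50. The cause of these changes was not tested. No gene that was called and is named above reversed its direction under the alternatives run. Genes with few reads in luminal samples, such as RRM2 and CALCA, have fold changes that depend on the pseudocount.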

Other observations

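Among 1479 genes in the gland table and not in the tumor table, the 5 highest in luminal samples were GCM2, RN5S, AGR2, ATP2B2 and DEFB14, with means of 147, 110.0, 92.3, 91.1 and 86 rescaled reads. All 5 were highest in the luminal sample of C2N, which was the shallowest library. GCM2, a transcription factor known from the parathyroid, was at 350.0, 88 and 2.46, and AGR2, a protein disulfide isomerase of secretory cells, at 248, 28.7 and 0 in C2N, C2R and C5R.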
